A study of Mus musculus with 2 samples.

Results

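The 10 genes described here encode proteins that neutrophils store or carry in bulk, and they were read in sorted plasmacytoid dendritic cells (pDCs), blood cells known for secreting large amounts of type I interferon. They fall into 3 classes. The azurophil granule class holds Mpo, Elane, Prtn3 and Ctsg, the secondary granule class holds Ngp, Lcn2, Ltf and Camp, and the cytosolic class holds S100a8 and S100a9. The genes were listed by name with their difference between the samples already known, so that difference describes them and tests nothing. All 10 were found among 19938 named genes, each with 1 probe set that carries its symbol alone.

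One sample was pDCs of Runx2-/- fetal liver chimeras, mice given fetal liver cells without the transcription factor Runx2 to rebuild their blood. The other was pDCs of chimeras made from wild-type fetal liver. Both came from bone marrow 2 months after reconstitution and were sorted by flow cytometry as cells positive for BST2 and B220 and negative for CD11b. An Affymetrix Mouse Gene 1.0 ST array was run on labelled material from 250 ng total RNA of each. The sources used here do not give the number and age of the mice behind each sample, or the share of blood cells left from the host. With 1 array for each genotype, no value below has a replicate, an error or a test. In such sorted bulk samples, fewer cells of a type cannot be told apart from less RNA per cell.

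Neutrophils fill their granules in the order in which they mature in the marrow. Azurophil (primary) granules form first, in promyelocytes, and hold myeloperoxidase and serine proteases. Secondary (specific) granules follow in myelocytes and metamyelocytes and hold iron-binding and antimicrobial proteins, and gelatinase granules come last. S100a8 and S100a9 form calprotectin, a metal-binding protein that lies in the neutrophil cytosol and not in granules. CD11b, encoded by Itgam, appears on the neutrophil lineage as it matures, and the sort kept CD11b-negative cells.

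The defining pDC receptor gene Siglech had an intensity of 12028 in Runx2-/- pDCs and 11436 in wild-type pDCs, and 0 of 12 pDC markers were 2-fold apart. Of these, 8 were lower in Runx2-/- pDCs, Lag3 (-0.74), Spib (-0.69), Irf7 (-0.68) and Pacsin1 (-0.56) most, and the median log2 difference was -0.18. The 12 include Bst2 and Ptprc, the genes of the BST2 and B220 proteins that the sort selected for, so their levels are not independent of it. The samples differed in other ways as well. Of 7 measured erythroid markers, 4 were at least 2-fold lower in Runx2-/- pDCs, as were 2 of 6 measured platelet markers. The platelet chemokine gene Ppbp differed most of these, with 156 in Runx2-/- pDCs against 4838 in wild-type pDCs. The platelet median was -0.61, and Itgb3 was higher in Runx2-/- pDCs (0.38). The Y-linked gene Eif2s3y had 31.6 in Runx2-/- pDCs and 687 in wild-type pDCs, Uty had 46.4 against 357 and Kdm5d 79.7 against 383. They were read as a check of the 2 samples, taken up because earlier results showed a difference. Y-linked signal thus differed along with genotype, and the 2 cannot be told apart here. No probe set carries the symbol of Runx2 alone, so the targeted gene was not analysed here. The part of these differences in the values below was not tested.

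All 10 genes were lower in Runx2-/- pDCs than in wild-type pDCs, and 9 were at least 2-fold lower. Over all named genes, 0.647% were at least 2-fold lower and 0.436% at least 2-fold higher, and nothing is read from that contrast because the genes were chosen on it. The secondary granule genes and calprotectin chains were further apart than the azurophil genes. The class medians of the log2 difference, Runx2-/- minus wild-type, were -1.29 for the 4 azurophil genes, -3.17 for the 4 secondary genes and -2.92 for the 2 cytosolic genes. The median over all named genes was -0.03.

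Promoter letters of the classes are shown first, beside what the array measured. RefSeq windows of 300 bases, 250 before and 50 after the annotated start, matched all 10 genes by symbol (build GRCm38.p6). They were searched on both strands for TTGCNNAA, letters of the C/EBP factors that drive granule genes, for GAGGAAG, letters of ETS factors such as PU.1, and for TGTGGT, letters of RUNX factors. No 2 matches overlapped. The stretches below hold the matches upstream of the start in the azurophil genes and in the 3 secondary genes that have any. Each is given 5′ to 3′ on the strand of its gene, with matched letters in capitals, and a match on the other strand appears as its reverse complement.
Mpo: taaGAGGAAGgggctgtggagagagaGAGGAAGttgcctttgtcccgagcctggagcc
Elane: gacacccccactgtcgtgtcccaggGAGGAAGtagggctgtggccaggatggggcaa
Prtn3: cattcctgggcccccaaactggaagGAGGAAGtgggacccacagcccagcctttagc
Ctsg: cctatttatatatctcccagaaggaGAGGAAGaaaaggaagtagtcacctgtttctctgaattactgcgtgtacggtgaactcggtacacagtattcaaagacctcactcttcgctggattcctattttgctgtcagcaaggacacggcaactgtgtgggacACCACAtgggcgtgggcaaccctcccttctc
Ngp: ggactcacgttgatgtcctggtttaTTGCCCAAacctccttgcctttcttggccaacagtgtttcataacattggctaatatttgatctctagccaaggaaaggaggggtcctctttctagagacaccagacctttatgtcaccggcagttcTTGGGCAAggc
Lcn2: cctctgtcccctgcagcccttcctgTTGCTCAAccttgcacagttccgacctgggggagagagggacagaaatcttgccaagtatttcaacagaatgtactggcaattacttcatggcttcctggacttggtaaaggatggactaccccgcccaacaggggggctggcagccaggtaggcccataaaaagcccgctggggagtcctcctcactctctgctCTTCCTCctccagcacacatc
Ltf: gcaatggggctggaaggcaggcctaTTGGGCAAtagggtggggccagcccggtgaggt

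The stretches lie at chr11:87793534-87793591 on the plus strand for Mpo, chr10:79886202-79886258 plus for Elane, chr10:79879547-79879603 plus for Prtn3 and chr14:56102623-56102815 minus for Ctsg. Those of the secondary genes lie at chr9:110419645-110419807 plus for Ngp, chr2:32387740-32387980 minus for Lcn2 and chr9:111019192-111019249 plus for Ltf. The C/EBP letters occurred in 0 of 4 azurophil windows, 3 of 4 secondary windows and 1 of 2 cytosolic windows, the last in S100a9. Of all 32851 windows in the table, 10.8% held them. Ngp had a pair of matches, starting 138 and 11 bases before the start.

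The ETS letters were distributed the other way, in 4 of 4 azurophil windows, 1 of 4 secondary windows (Lcn2) and 1 of 2 cytosolic windows (S100a8), against 13.6% of all windows. In Mpo they occurred at 2 places. The RUNX letters occurred in 1 window of each class, those of Ctsg, Ltf and S100a9, against 16.8% of all windows, and in Ltf they lay after the start. Camp had none of the 3. A match is a description of letters and not a bound site, and a window without one says nothing about the factor.

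**Figure D1:**
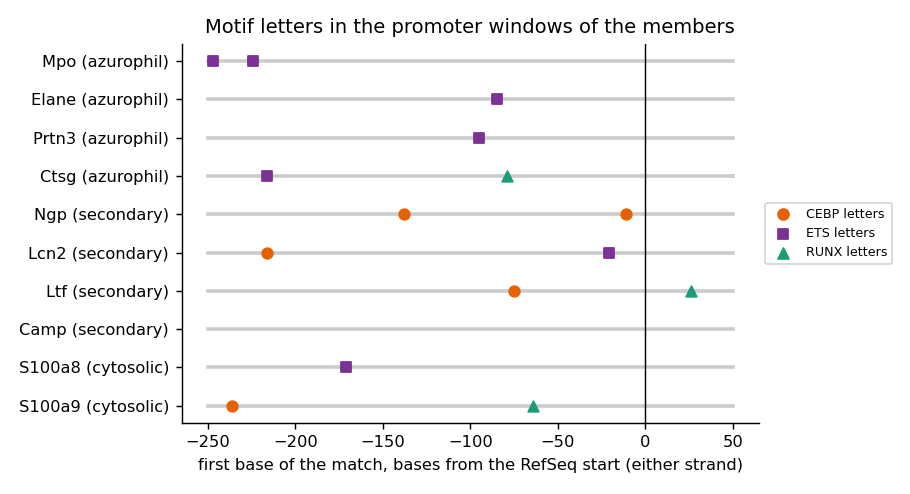
Motif letters in the promoter windows of the 10 genes; the horizontal axis is the first base of each match in bases from the RefSeq start, grey lines are the 300-base windows and symbols are C/EBP, ETS and RUNX letters on either strand. ETS letters stand in all 4 azurophil rows and C/EBP letters in 3 of 4 secondary rows.

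The azurophil genes differed by 1.80-fold to 4.11-fold. Mpo, which encodes myeloperoxidase, the enzyme that makes hypochlorous acid, had an intensity of 308 in Runx2-/- pDCs and 1268 in wild-type pDCs, a log2 difference of -2.04. Elane, which encodes neutrophil elastase, had 453 in Runx2-/- pDCs and 1296 in wild-type pDCs, a log2 difference of -1.52. Both genes were above the array median, taken here over all named genes, which was 7.54 on the Runx2-/- array and 7.61 on the wild-type array in log2 units.

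Ctsg, which encodes the protease cathepsin G, had 210.5 in Runx2-/- pDCs and 442 in wild-type pDCs (-1.07 on the log2 scale). Prtn3, which encodes proteinase 3, had 169 in Runx2-/- pDCs and 304 in wild-type pDCs (-0.84), and was the 1 gene of the 10 under 2-fold. Prtn3 and Elane are next to each other on chromosome 10, and Med16, on the other side of Elane, differed by -0.96, further from 0 than Prtn3. Mpo was the single azurophil gene at least 4-fold lower.

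The secondary granule genes ranged from 4.82-fold to 24.4-fold lower. Ngp, a neutrophilic granule protein related to cystatins and cathelicidins, had 296 in Runx2-/- pDCs and 7231 in wild-type pDCs, a log2 difference of -4.61. It had the second lowest difference of all named genes. Lcn2, which encodes lipocalin 2, a protein that withholds iron from bacteria by binding their siderophores, had 272 in Runx2-/- pDCs and 3865 in wild-type pDCs (-3.83). These Runx2-/- levels stayed 0.67 and 0.55 log2 units above that array's median.

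Ltf, which encodes the iron-binding protein lactoferrin, had 123 in Runx2-/- pDCs and 695 in wild-type pDCs, a 5.66-fold lower level. Camp, which encodes the antimicrobial cathelicidin, had 167 in Runx2-/- pDCs and 802 in wild-type pDCs, a 4.82-fold lower level. In contrast to Ngp and Lcn2, both were below the array median on the Runx2-/- array.

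Both calprotectin chains were low in Runx2-/- pDCs. S100a8 had 91.2 in Runx2-/- pDCs and 903 in wild-type pDCs, which is 9.91-fold lower and -3.31 on the log2 scale. S100a9 had 123 in Runx2-/- pDCs and 713 in wild-type pDCs, which is 5.79-fold lower and -2.53 on the log2 scale. Their proteins act as a pair and the genes are neighbours on chromosome 3. Relative to the array median, S100a8 stood at -1.03 log2 units on the Runx2-/- array and at 2.20 on the wild-type array. S100a9 stood closer to it on both, at -0.595 on the Runx2-/- array and at 1.86 on the wild-type array.

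**Figure D2:**
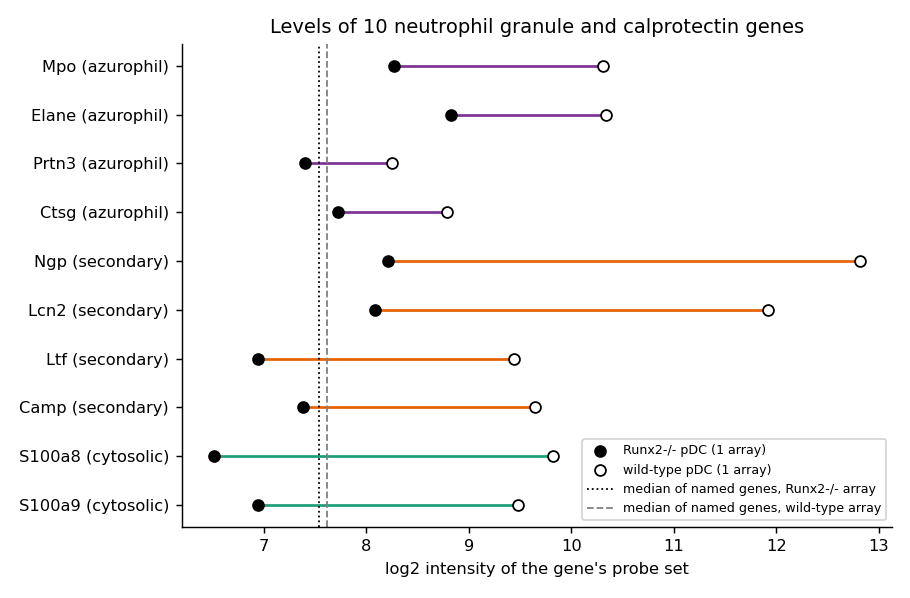
Log2 intensity of the probe set of each gene (horizontal axis) in Runx2-/- pDCs (filled) and wild-type pDCs (open), 1 array each, with line colour for the class and vertical lines at the median of all named genes on each array. All 10 wild-type points lie above the median, while 5 of the 10 Runx2-/- points lie below it.

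Set side by side, the azurophil class did not overlap the others in the deposited values, while the cytosolic range lay inside the secondary one. The azurophil differences ran from -2.04 to -0.84, the secondary ones from -4.61 to -2.27 and the cytosolic ones from -3.31 to -2.53. The azurophil median lay 1.87 log2 units above the secondary median and 1.63 above the cytosolic median. All 6 secondary and cytosolic genes were at least 4-fold lower in Runx2-/- pDCs, against 1 of 4 azurophil genes, where 0.155% of all named genes were. This separation is one of the genes chosen, with their differences known. Among the further granule genes described below, the 13 secondary ones ran from -1.86 to 0.39. The 8 azurophil ones ran from -0.34 to 0.37, inside that range. With 1 array for each genotype the difference between classes was not tested.

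The Runx2-/- level was below the array median for Prtn3, Ltf, Camp, S100a8 and S100a9, and the table gives no detection call to set their background. When values below the median of all named genes were raised to it, a setting chosen after seeing the data, the differences became -1.90 for Ltf and -1.94 for S100a9, which are closer to 0 than the -2.04 of Mpo. S100a8 became -2.28. The azurophil class then overlapped the others, and its median lay 0.82 above the cytosolic one and 1.67 above the secondary one. Ngp and Lcn2 kept their differences of -4.61 and -3.83 there, since both were above the median on each array.

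**Figure D3:**
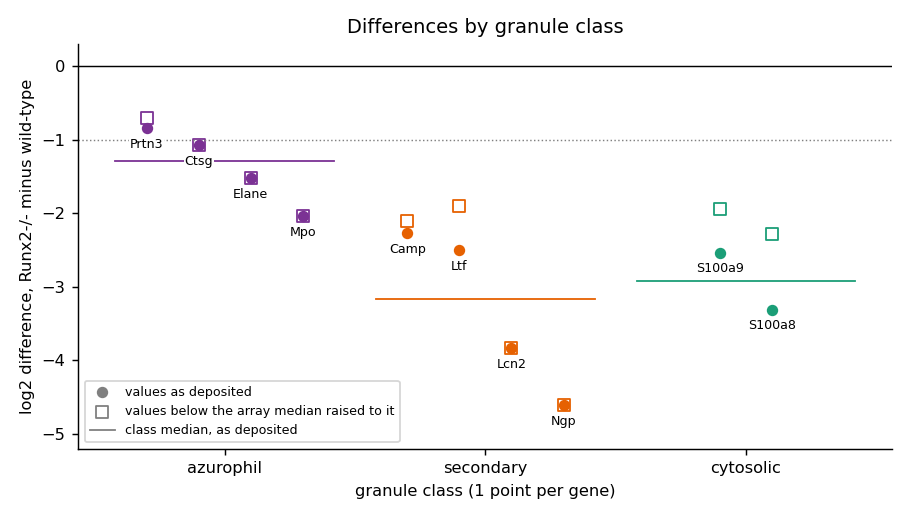
Log2 difference, Runx2-/- minus wild-type, of each gene by granule class; filled circles are deposited values with the class median as a line, and open squares are values after those below the array median were raised to it. The dotted line marks 2-fold lower; circles of the azurophil class (-2.04 to -0.84) lie above those of the other classes, while the squares of Ltf (-1.90) and S100a9 (-1.94) lie above that of Mpo.

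The 10 were also placed among all named genes. Ordered from the lowest difference, Lcn2 was at place 5, S100a8 at 9, S100a9 at 14, Ltf at 15 and Camp at 21 of 19938. Mpo was at place 29, Elane at 62, Ctsg at 112 and Prtn3 at 186. The quartiles over all named genes were -0.17 and 0.10.

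**Figure D4:**
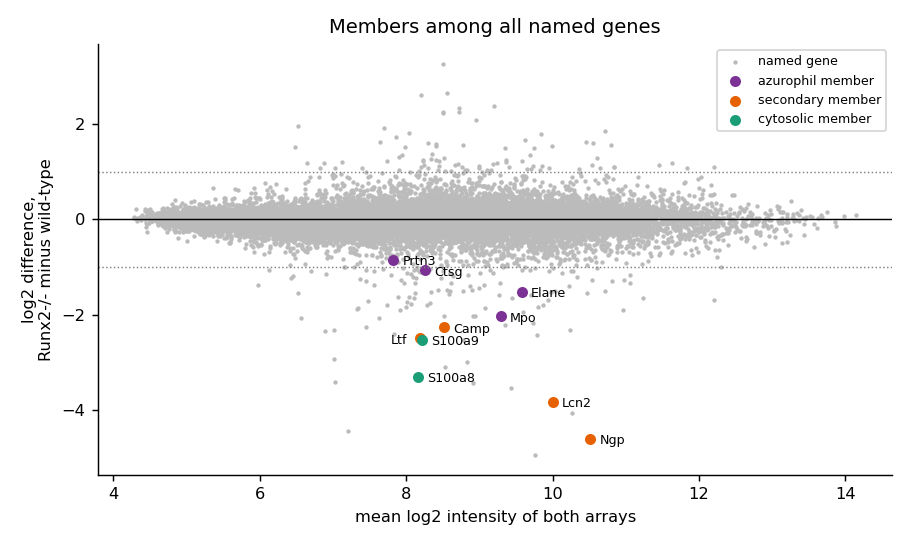
Log2 difference, Runx2-/- minus wild-type, against the mean log2 intensity of both arrays for 19938 named genes (grey), with the 10 genes coloured by class and dotted lines at 2-fold. Ngp (-4.61), Lcn2 (-3.83) and S100a8 (-3.31) are the lowest coloured points and Prtn3 (-0.84) lies nearest to the cloud.

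Other genes of the same granules did not share one direction or size. Of 8 other azurophil granule genes, 0 were 2-fold apart and the median difference was -0.13. Only 5 of the 8 were at or above the array median on at least 1 array, with a median of 0.06. Bpi and Cd63 were among those below it on both arrays. Prss57, a serine protease of azurophil granules, had 305 in Runx2-/- pDCs and 237 in wild-type pDCs, a difference of 0.37 in the opposite direction to Elane and Prtn3. Ctsc, the dipeptidase that activates these proteases, had 2281 in Runx2-/- pDCs and 2194 in wild-type pDCs. Srgn, the proteoglycan that packs them, had 8688 in Runx2-/- pDCs and 9937 in wild-type pDCs. Ctsc and Srgn are also used by many other blood cells. Ms4a3, a marker of granulocyte and monocyte precursors, was below the array median on both arrays, at 99.8 in Runx2-/- pDCs and 126 in wild-type pDCs.

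Of 13 other secondary granule genes, 3 were at least 2-fold lower in Runx2-/- pDCs, 0 were higher and the median was -0.21. Mmp8, the neutrophil collagenase, had 85.2 in Runx2-/- pDCs and 309 in wild-type pDCs, and Lyz2, which encodes lysozyme, had 480.0 against 1440.2 in wild-type pDCs. Chil3, a chitinase-like protein with close paralogs, had 39.0 in Runx2-/- pDCs and 102 in wild-type pDCs, both below the array medians. The cytochrome b558 chains of the phagocyte oxidase, which pDCs also express, were nearly level. Cybb differed by -0.04 and Cyba by -0.16. Slpi, a secreted inhibitor of elastase and cathepsin G, had 978 in Runx2-/- pDCs and 745 in wild-type pDCs (0.39).

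Genes of the later granules and of the neutrophil cytosol were mostly below 0, as was the median over all named genes (-0.03). Of 6 measured gelatinase granule genes, Mmp9, the gelatinase itself, was the 1 at least 2-fold lower, at 144 in Runx2-/- pDCs and 295 in wild-type pDCs, and the median was -0.27. Itgam, the gene of the CD11b protein sorted against, was below the median on both arrays, at 157 in Runx2-/- pDCs and 192 in wild-type pDCs. Of 11 measured other cytosol genes, 0 were 2-fold apart and the median was -0.39. Anxa1, a phospholipid-binding protein abundant in neutrophils, differed by -0.93 at levels below both array medians. S100a6, a relative of S100a8 in the same gene cluster, had 168 in Runx2-/- pDCs and 288 in wild-type pDCs (-0.78), and S100a11 differed by -0.22.

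Genes of mature neutrophils, mostly of the cell surface, included 4 of 10 measured that were at least 2-fold lower in Runx2-/- pDCs, with a median of -0.46. Ly6g, the neutrophil marker whose relatives have similar sequences, had 135 in Runx2-/- pDCs and 482 in wild-type pDCs. Retnlg, a resistin-like protein of neutrophils, had 155 in Runx2-/- pDCs and 487 in wild-type pDCs, and Trem3 had 147 against 333 in wild-type pDCs. Cxcr2, the chemokine receptor that draws neutrophils out of marrow, differed by -1.22 at levels below the array medians. Csf3r, the receptor for the growth factor G-CSF, went the other way, with 219 in Runx2-/- pDCs and 165 in wild-type pDCs.

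The transcription factors listed for granulopoiesis, the formation of granulocytes, were not all level. Of 11, 0 were 2-fold apart, and the median difference was -0.07. Spi1, Cebpa (-0.49), Cebpd (-0.42) and Cebpb (-0.32) were lower by more than 0.20, the robust SD over all named genes. Runx1 and Myb (0.22) were higher by more than that. Cebpb, Cebpd, Cebpe and Gfi1 were below both array medians, where the processing can shrink differences, and whether it did so for them was not tested. The list also holds Irf8, at 11055 in Runx2-/- pDCs and 10803 in wild-type pDCs. Cebpe, the factor required for secondary granules, had 161 in Runx2-/- pDCs and 183 in wild-type pDCs, both below the array medians, and Gfi1, which acts beside it, had 146 against 153 in wild-type pDCs. Cebpa, needed for the first step into the lineage, had 184 in Runx2-/- pDCs and 259 in wild-type pDCs. Spi1, which encodes PU.1, differed by -0.49 and Runx1 by 0.47, and both are also expressed in pDCs.

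Granule genes of other cell types were measured as well. Of 8 mast cell and basophil genes and 7 cytotoxic granule genes, 0 were 2-fold apart, with medians of -0.03 and 0.03. Only 1 gene of each list was at or above the array median on at least 1 array, Cpa3 (-0.54) and Nkg7 (-0.44). The other genes were dim on both arrays, so these medians do not show that the granule genes of those cells were level. Mcpt8, the basophil protease gene next to Ctsg on chromosome 14, had 126 in Runx2-/- pDCs and 189 in wild-type pDCs. Of 6 measured eosinophil genes, the ribonuclease gene Ear6 was 3.12-fold lower in Runx2-/- pDCs and Prg3, a major basic protein relative, was 2.54-fold higher. Of the nearest measured genes on each side of the 10, 16 were not among them, and 0 of these were 2-fold apart, with differences from -0.96 to 0.36. Mcpt8 and several others of the 16 were below the array median on both arrays.

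Markers of other marrow cells differed to unlike degrees. The summed intensity of the 7 erythroid markers was 884 in Runx2-/- pDCs and 2468 in wild-type pDCs, with a median difference of -1.64. That of the 6 platelet markers was 2290.0 against 7339 in wild-type pDCs, of which Ppbp alone gave 4838, and their median difference was -0.61. The 11 monocyte and macrophage markers summed to 11737 in Runx2-/- pDCs and 11782 in wild-type pDCs, of which Mpeg1 alone gave 8571 in Runx2-/- pDCs and 8789.7 in wild-type pDCs. None was 2-fold apart, and C1qb (0.89), Csf1r (0.64) and Ms4a7 (0.61) had the highest differences, Ms4a7 at levels below both array medians. Of 7 progenitor markers, Kit was the 1 at least 2-fold apart, 2.92-fold higher in Runx2-/- pDCs. T cell and B cell markers had 0 of 4 and 0 of 5 genes 2-fold apart, but only 1 of the 4 and 2 of the 5 reached the array median on either array. No marker was at 0, since this array reports a level for each probe set. The part of other cells in the granule gene differences was not tested.

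**Figure D5:**
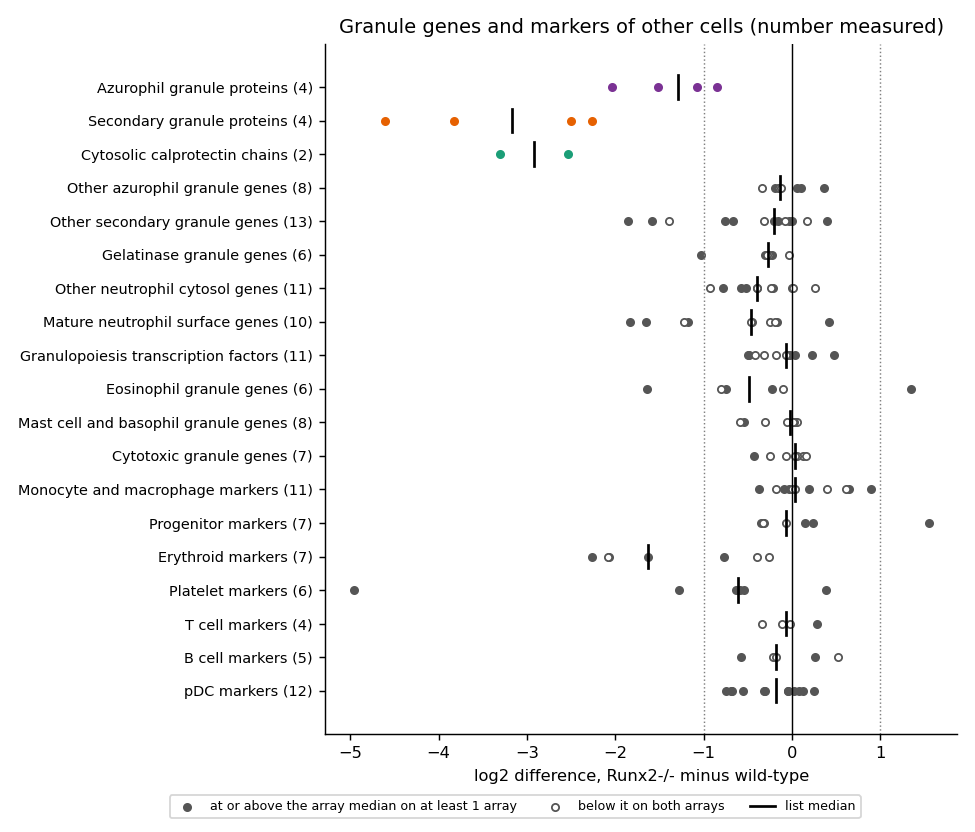
Log2 difference, Runx2-/- minus wild-type, of each measured gene (1 point) by gene list, with the list median as a vertical bar; open points are genes below the median of named genes on both arrays and dotted lines mark 2-fold. The 3 classes at the top have medians of -1.29, -3.17 and -2.92, and among the other lists the erythroid median (-1.64) is furthest from 0.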

How the data were processed

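The deposited table holds 1 linear intensity for each of 35556 probe sets and array. The authors' values come from RMA, per the submitters' processing notes, a method that corrects background, equalises arrays and summarises probes. Its version and which arrays entered together are not stated there. RMA shrinks differences between dim signals, and the deposited table holds no detection call. Column medians were 181.7 for the Runx2-/- array and 182.9 for the wild-type array. The number of arrays limits the precision.

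Log2 intensities were subtracted, Runx2-/- minus wild-type, with a 2-fold threshold and no test. Of the probe sets, 21789 have 1 gene symbol in the platform annotation, 1621 have several and 12146 have none, and only the first kind was named. A gene with several took the one with the highest mean log2 of both arrays. Lists count every measured member. The members, classes and lists were chosen with earlier results of these data known. The text names the 10 genes and, from each list, up to the few furthest from 0 in each direction and its defining markers. The Y-linked genes, Med16 and further list genes named for a role were added after their values were seen. Promoter windows came from RefSeq. The protein comparison that had been planned was not made, as no protein table was used here. The calculation was tested on simulated data. Alternatives were median centring, loess (span 0.3), the mean of probe sets, a pseudocount of 50, a brightness filter, thresholds of 1.5-fold and 4-fold, leaving out extreme members, and a floor at the array median. The tools were pandas 2.3.3, numpy 2.4.6, matplotlib 3.10.9 and statsmodels 0.14.6 under Python 3.11.15.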

Additional observations from a re-analysis of the deposited data

How the results depend on the processing

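With 1 array for each genotype, a difference between mice, pools or hybridisations is not separated from genotype. The difference in Y-linked genes is not separated from it either. Of the 10 Runx2-/- values, 5 lie below the array median. No paired analysis was possible because each group has 1 sample. No result changed sign under any alternative run, and the count of the 10 genes at least 2-fold lower stayed within 1.5 times its value, although Ctsg left it with a pseudocount of 50 (-0.92), for a count of 8. Median centring, loess, the mean of probe sets and the brightness filter moved no member or class median by more than the spread of 0.20 (robust SD of the difference over all named genes). With a pseudocount of 50 the secondary median was -2.86, the cytosolic median -2.45 and the azurophil minus cytosolic difference 1.28. With the floor at each array's median, the cytosolic median was -2.11 and that difference 0.82, while the secondary median was -2.97 and the azurophil minus secondary difference 1.67. Without the most extreme member of each class of 3 or more, the azurophil median was -1.07, the secondary median -2.50, and the azurophil median lay 1.43 above the secondary and 1.85 above the cytosolic one. Genes at least 1.5-fold and 4-fold lower numbered 442 and 31 of all named genes, against 129 at 2-fold. The azurophil genes stayed apart from the other 6 under median centring, loess and the pseudocount, and overlapped them with the floor. The gap was narrow, as Mpo and Camp lay at -2.05 and -2.24 under loess and at -1.88 and -1.98 with the pseudocount. These pairs are closer than the spread of 0.20. The mean of probe sets and the brightness filter changed none of the 10 values, so they could not show an overlap.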
